A study of Arabidopsis thaliana with 8 samples.

Results

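FT, SOC1, FLC and FUL are 4 regulators of the switch from vegetative growth to flowering in Arabidopsis thaliana. Each was followed through 1 probe set, so 4 of the 22746 probe sets on the array (control excluded) are described here, and all 4 were measured on every array. The probe sets were 264638_AT for FT (locus AT1G65480), 267509_AT for SOC1 (AT2G45660, listed as AGL20 by RefSeq), 250476_AT for FLC (AT5G10140) and 247553_AT for FUL (AT5G60910, listed as AGL8 by RefSeq). The deposited table does not itself pair probe sets with genes, and the pairing used is the one given with the choice of these genes.

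The measurements came from shoots of untreated plants of the Col-0 ecotype, harvested at an age of 18 days from a greenhouse at 20 °C with 18 h of light per day. Total RNA was hybridised for 4 genotypes: wild type, the lhp1-4 mutant, the bpc4 bpc6 double mutant and the lhp1-4 bpc4 bpc6 combination, called the triple mutant below. There were 2 biological replicates per genotype, 1 array each, and every replicate pooled 6 plants. The labels name the lhp1-4 allele but no alleles of BPC4 and BPC6. LHP1 is a chromodomain protein that binds chromatin carrying the Polycomb mark on histone H3, and BPC4 and BPC6 are BASIC PENTACYSTEINE proteins that bind GAGA motifs. The title of the series links BPC6 to the placement of LHP1 at such motifs. Whether the mutated genes and the tissue's marker genes had the expected levels was not analysed here.

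Flowering in long days is set off in the leaf, where FT is transcribed in the companion cells of the phloem. The FT protein, known as florigen, moves to the shoot apex and, with the bZIP factor FD, switches on SOC1, FUL and the floral identity genes. FLC is a MADS-box repressor that holds back FT and SOC1 and is itself silenced by Polycomb proteins, and in Col-0, which carries a non-functional FRIGIDA allele, it is weakly expressed. SOC1 and FUL are MADS-box factors that promote the transition at the apex, and FUL is later needed for fruit development. Mutants of LHP1 are known for early flowering.

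FT and FUL were several-fold higher with LHP1 lost, whether BPC4 and BPC6 were present or not. In lhp1-4, FT was 6.87 times and FUL 5.16 times its wild type intensity. In the triple mutant FT was 22.7 times and FUL 5.06 times its bpc4 bpc6 intensity, and 13.8 times and 6.92 times wild type. SOC1 passed the test in none of the comparisons, and its value depended on 1 wild type array. FLC gave a dim signal that was lowest in bpc4 bpc6, and it passed the test only between the triple mutant and bpc4 bpc6.

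**Figure D1:**
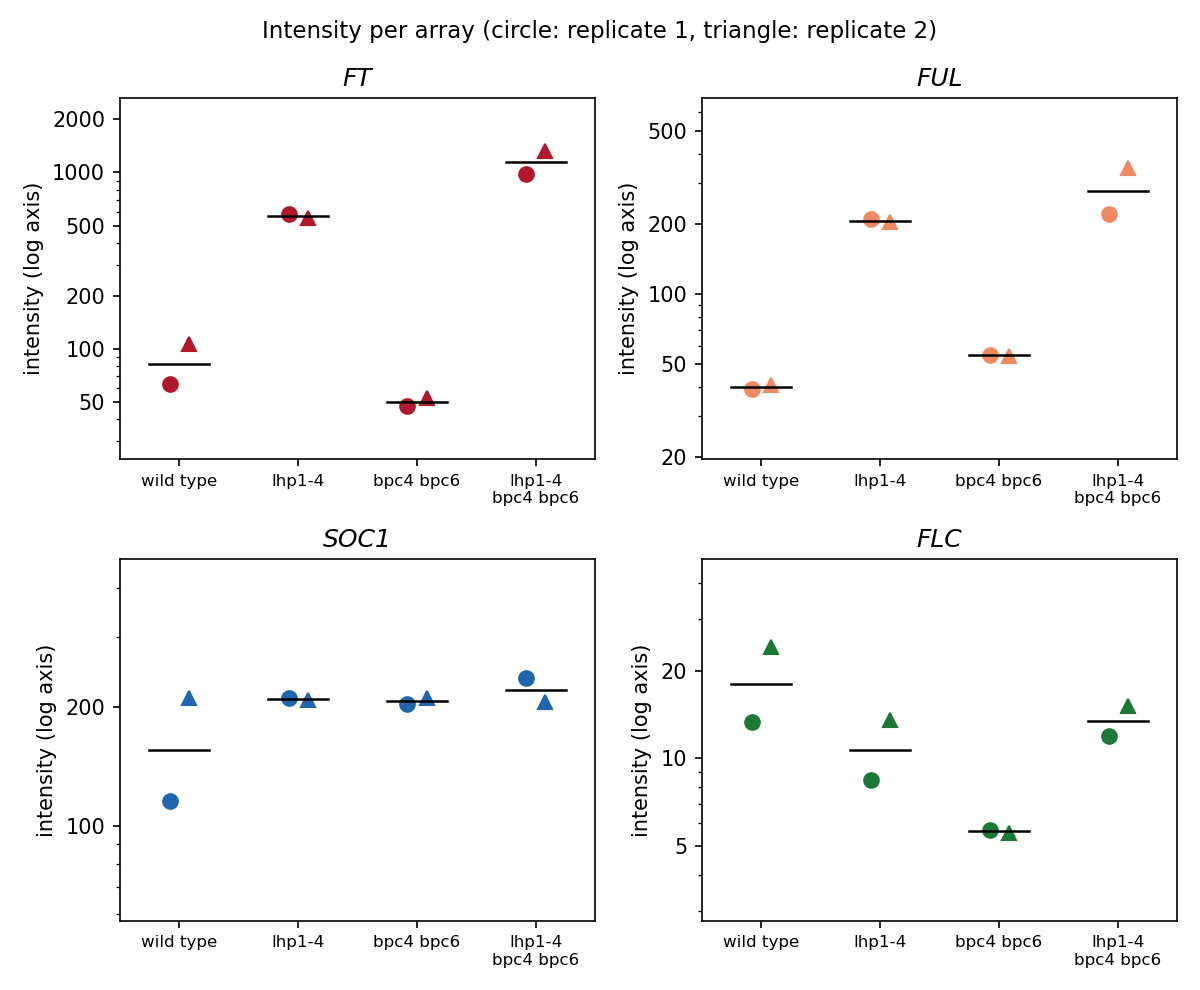
Intensity of the 4 genes on each of the 8 arrays, on a log axis, with circles for replicate 1, triangles for replicate 2 and a bar at the geometric mean of the genotype. FT and FUL sit high in lhp1-4 and the triple mutant, the low SOC1 point is wild type replicate 1 at 115, and the FLC points run from 5.57 to 24.1.

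Intensities are linear fluorescence values after restoration of the scale. Values of 1000 or more appeared to be stored divided by 1000, and FT held the only such value among the 32 of these genes, 1.32 in triple mutant replicate 2, read as 1320. Levels are compared between arrays for the same gene and not between genes, because probe sets differ in brightness. In whole shoots a higher or lower signal from more or fewer expressing cells cannot be told apart from a change in RNA per cell. The plants were of the same age, and whether they were at the same stage was not tested. Differences were tested on the log2 scale with limma, an empirical Bayes linear model, fitted to 22716 probe sets and all 8 arrays, and were called where the p, adjusted over all probe sets by Benjamini-Hochberg, was under 0.05. Errors are standard errors (SE) of that model with n = 2 arrays per genotype. Median array intensities ran from 54.7 to 58.3, and replicate arrays correlated at 0.993 to 0.997 across probe sets.

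FT, the mobile flowering signal, read 63.6 and 106 on the wild type arrays. Both lhp1-4 arrays were far above these, at 582 and 550, and the bpc4 bpc6 arrays below them, at 47.5 and 53.2. The triple mutant arrays were the highest, at 982 and 1320. The genotypes did not overlap, and the order was triple mutant, lhp1-4, wild type and bpc4 bpc6. The share of all probe sets whose genotypes did not overlap was not counted. The 2 arrays with BPC4 and BPC6 intact but LHP1 lost lay at over 5 times the higher wild type array. Against wild type, the log2 difference was 2.78 ± 0.25 in lhp1-4 (limma adjusted p = 0.00222) and 3.79 ± 0.25 in the triple mutant (limma adjusted p = 0.00024). Only 36 of the 22716 probe sets had a larger upward difference than FT in lhp1-4. The triple mutant stood 22.7-fold above bpc4 bpc6, a log2 difference of 4.50 ± 0.25 (limma adjusted p = 0.00015), and there 10 probe sets exceeded it.

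The lower neighbours in that order were not separated by the test. FT in bpc4 bpc6 was below wild type by a log2 difference of -0.71 ± 0.25 (95% interval -1.30 to -0.12; limma adjusted p = 0.218). The wild type replicates themselves differed 1.67-fold, and the difference was -1.08 without wild type replicate 1 and -0.34 without replicate 2, with no call either time. Above, FT in the triple mutant was 2.01 times its level in lhp1-4, a log2 difference of 1.01 ± 0.25 (95% interval 0.42 to 1.60; limma adjusted p = 0.0821). This step missed the threshold here and passed it under 4 of 17 alternative settings, among them the omission of either wild type array, which takes FT's widest replicate gap out of the pooled spread (SE 0.16 in place of 0.25). For this comparison the 2 omissions gave the same result and amount to 1 check. Its size without 1 array ran from 0.80 to 1.22.

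FUL, the MADS-box gene that acts at the apex and later in the fruit, read 39.2 and 40.6 on the wild type arrays, and 54.8 and 54.4 on those of bpc4 bpc6. It read 209 and 203 for lhp1-4 and 221 and 346 for the triple mutant. All 4 genotypes were apart, with both lhp1-4 arrays below both triple mutant arrays, though the share of all probe sets set apart in this way was not counted. The replicates lay close together except in the triple mutant, where they differed 1.57-fold, a gap exceeded by 3.22% of all probe sets in that genotype. FUL rose in lhp1-4 by 2.37 ± 0.19 on the log2 scale (limma adjusted p = 0.00164) and in the triple mutant by 2.79 ± 0.19 (limma adjusted p = 0.000271) over wild type. Over bpc4 bpc6 the triple mutant was higher by 2.34 ± 0.19 (limma adjusted p = 0.000504). These 3 calls held under every alternative setting run.

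FUL stood 1.37 times as high in bpc4 bpc6 as in wild type, a log2 difference of 0.45 ± 0.19 that missed the threshold (95% interval -0.0041 to 0.91; limma adjusted p = 0.309). Between the triple mutant and lhp1-4 the log2 difference was 0.42 ± 0.19 (95% interval -0.033 to 0.88; limma adjusted p = 0.31). That value rested on triple mutant replicate 2: without it the difference was 0.10, and without replicate 1 it was 0.75. In both fits the lone triple mutant array is assumed to vary like the other groups, and FUL's widest replicate gap is gone, so that the SE fell from 0.19 to 0.099. The adjusted p of 0.0467 that limma gave without replicate 1 rests on that smaller spread.

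SOC1, a MADS-box integrator that FT promotes and FLC represses, read 115 and 210 on the wild type arrays. The mutants lay together, with 210 and 208 for lhp1-4, 203 and 211 for bpc4 bpc6, and 236 and 206 for the triple mutant. Of the 8 arrays 7 lay between 203 and 236, and wild type replicate 1 alone was lower. The 1.82-fold gap between the wild type replicates was exceeded by 1.81% of probe sets. The log2 differences from wild type were 0.42 ± 0.25 in lhp1-4 (limma adjusted p = 0.356), 0.41 ± 0.25 in bpc4 bpc6 (limma adjusted p = 0.494) and 0.50 ± 0.25 in the triple mutant (limma adjusted p = 0.202). Their 95% intervals, -0.17 to 1.02, -0.19 to 1.01 and -0.096 to 1.10, all hold a doubling and no change at all.

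Which wild type array was kept decided the SOC1 value. Without wild type replicate 1 the differences were -0.0076, -0.024 and 0.070 in the same order, with limma adjusted p of at least 0.777. Without wild type replicate 2 they were 0.86, 0.84 and 0.94. Each of these fits assumes that the lone wild type array varies like the other groups, and leaving out either array removes SOC1's 1 wide replicate gap, which lowered the SE from 0.25 to 0.11. The limma adjusted p of 0.0208, 0.0478 and 0.00725 without replicate 2 rest on that smaller spread. Between the triple mutant and each of its parents, comparisons that involve no wild type array, the log2 differences were 0.078 ± 0.25 for lhp1-4 and 0.094 ± 0.25 for bpc4 bpc6 (limma adjusted p = 0.974 and 0.847). In the 3 mutant genotypes SOC1 thus spanned 207 to 221 as geometric means, while FT spanned 50.3 to 1139.

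FLC, the repressor of FT and SOC1, read 13.4 and 24.1 on the wild type arrays, 8.43 and 13.5 for lhp1-4 and 11.9 and 15.1 for the triple mutant. For bpc4 bpc6 it read 5.69 and 5.57. Both bpc4 bpc6 arrays were below all other arrays, while wild type, lhp1-4 and triple mutant overlapped. How many of all probe sets were lowest on both bpc4 bpc6 arrays was not counted. The signal was dim throughout. Of 17709 probe sets with a settled level, 17.4% were dimmer than FLC in wild type and 0.282% in bpc4 bpc6. These are ranks of intensity and not of transcript amount. They left out the 5007 probe sets of open level, whose values, up to 10 as they stood, could not be settled. Both bpc4 bpc6 readings of FLC were also under 10, so the 0.282% does not give its place among all probe sets. Near the lower end of the scale a log2 difference may misstate a change in transcript in either direction. Whether the FLC signal stood above background was not tested. The replicates of lhp1-4 differed 1.60-fold, a gap that 0.634% of probe sets exceeded, and those of wild type 1.80-fold.

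The largest FLC difference was that between bpc4 bpc6 and wild type, -1.67 ± 0.32 on the log2 scale, or 3.19-fold lower (95% interval -2.43 to -0.92; limma adjusted p = 0.057). It missed the threshold as fitted, although only 10 probe sets had a more negative difference, and passed it under 3 of 16 alternatives, among them centring each array (limma adjusted p = 0.036) and an intensity trend in the moderation (limma adjusted p = 0.0333). With only the genotypes compared it was further from the threshold (limma adjusted p = 0.154). Leaving out each array in turn moved this difference from -2.10 to -1.25. FLC in the triple mutant was higher than in bpc4 bpc6 by 1.25 ± 0.32 (limma adjusted p = 0.0326). That call was lost without any 1 of the 4 arrays compared, with limma adjusted p of 0.0711 to 0.143. The differences from wild type were -0.75 ± 0.32 in lhp1-4 (95% interval -1.50 to 0.0048; limma adjusted p = 0.23; -1.17 to -0.32 without 1 array) and -0.42 ± 0.32 in the triple mutant (95% interval -1.17 to 0.33; limma adjusted p = 0.37), and between triple mutant and lhp1-4 0.33 ± 0.32 (limma adjusted p = 0.713).

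**Figure D2:**
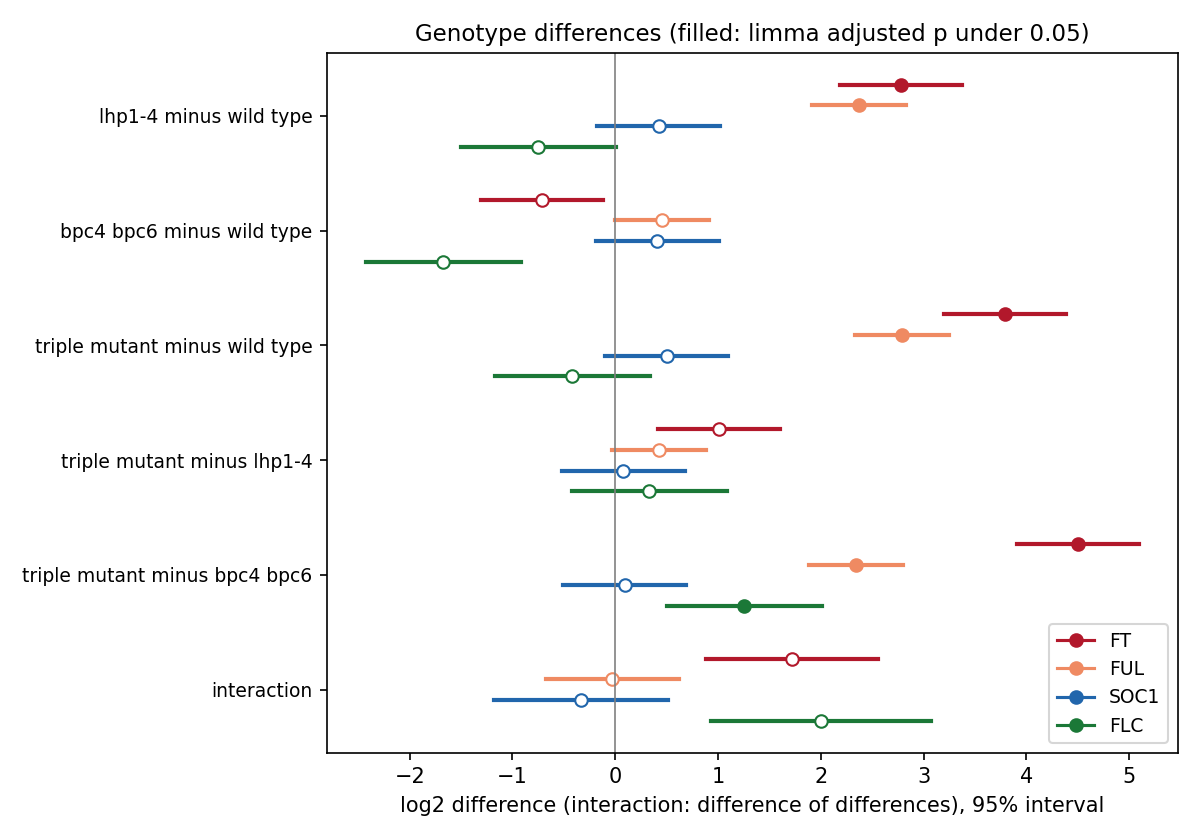
Log2 differences of the 4 genes in the 5 genotype comparisons and the interaction, with 95% intervals from limma, and filled points where the adjusted p was under 0.05. FT and FUL have filled points in the 3 comparisons that differ in LHP1, FLC has 1, at 1.25 between triple mutant and bpc4 bpc6, and SOC1 has none.

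Read against all probe sets, the calls were placed as follows. The 4 genes were chosen with earlier results of these data known, so these shares and medians are a description and no independent test. A median of the 4 does not stand for a shared shift: in lhp1-4 SOC1 was at 0.42 and FLC at -0.75. In lhp1-4 against wild type 2 of the 4 genes rose and none fell, where 3.53% of all probe sets rose, and the median log2 difference was 1.40 for the 4 genes and -0.066 for all. In the triple mutant against wild type 2 of 4 rose, where 11.5% of all probe sets rose, with medians of 1.65 and -0.091. In the triple mutant against bpc4 bpc6 3 of 4 rose, where 10.5% of all rose, with medians of 1.80 and -0.051. In bpc4 bpc6 against wild type none of the 4 passed, where 1.8% of all probe sets did, and FT and FLC had unadjusted p of 0.025 and 0.00124. In the triple mutant against lhp1-4 none of the 4 passed, where 3.31% of all did, and FT had an unadjusted p of 0.00506. The comparisons with wild type share its 2 arrays. After each array was centred on its median, the calls over all probe sets split differently, into 727 rises and 898 falls in lhp1-4 in place of 802 and 564, while FT and FUL kept their calls.

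The interaction asked whether the change from losing LHP1 was of the same size with and without BPC4 and BPC6. For FT the LHP1 step was 2.78 with the BPC genes intact and 4.50 without them. The interaction, the difference of these steps, was 1.72 ± 0.35 (95% interval 0.89 to 2.56), and it missed the threshold at a limma adjusted p of 0.0631, with an unadjusted p of 0.00189. It passed under 6 of 16 alternatives, with limma adjusted p of 0.0233 to 0.0487 in those. It was 2.09 without wild type replicate 1 and 1.35 without replicate 2, where it was not called (limma adjusted p = 0.0642). On the values as deposited, with the scale not restored, it was -3.26 and not called. For FUL the steps were 2.37 and 2.34, and the interaction was -0.028 ± 0.27 (95% interval -0.67 to 0.62; limma adjusted p = 0.974). Whether the interactions of FT and FUL differ from each other was not tested.

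For FLC the interaction was 2.00 ± 0.45 (95% interval 0.94 to 3.07; limma adjusted p = 0.081), made of a step of -0.75 with the BPC genes intact and 1.25 without them. For SOC1 it was -0.33 ± 0.36 (95% interval -1.18 to 0.52; limma adjusted p = 0.726), and 0.10 without wild type replicate 1. None of the 4 genes passed limma's interaction test, where 2.33% of all probe sets did, and FT and FLC had unadjusted p of 0.00189 and 0.00309.

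**Figure D3:**
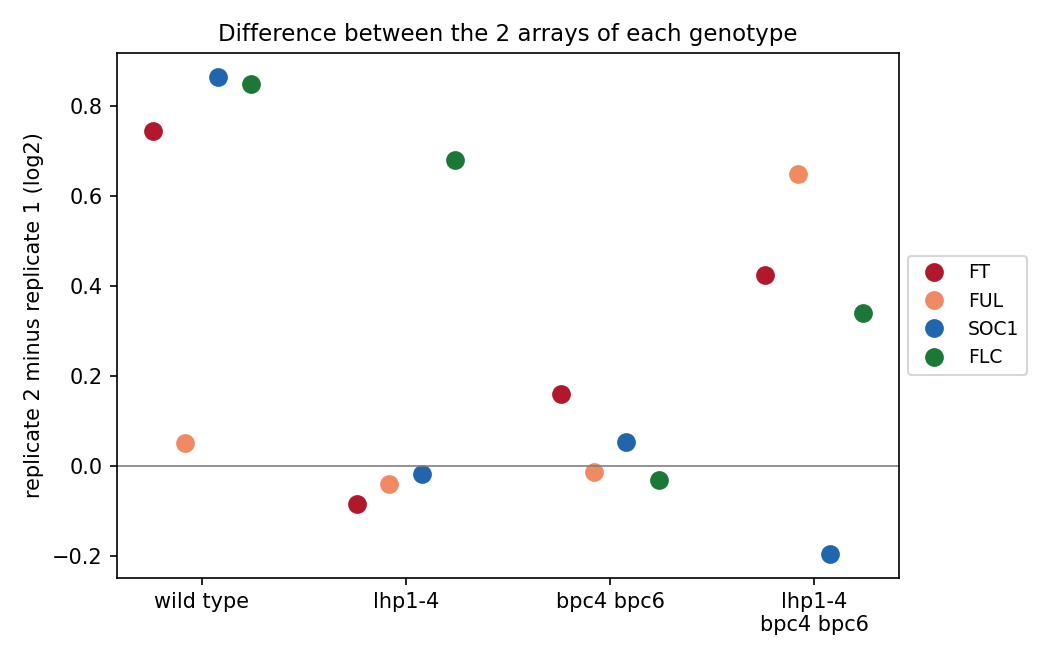
Log2 intensity of replicate 2 minus replicate 1 for each gene in each genotype. In wild type FT, SOC1 and FLC lie between 0.74 and 0.87 and FUL at 0.051, while in bpc4 bpc6 all 4 genes lie between -0.031 and 0.16.

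The spread between replicates differed by gene and genotype. In wild type replicate 2 was higher than replicate 1 by 0.74 for FT, 0.87 for SOC1 and 0.85 for FLC on the log2 scale, gaps exceeded by 3.02%, 1.81% and 1.92% of probe sets in wild type. For FUL the same gap was 0.051. The median gap over all probe sets was 0.15 for wild type, 0.096 for lhp1-4, 0.11 for bpc4 bpc6 and 0.14 for the triple mutant. The part of these gaps in the results above was measured by leaving out each wild type array: the FT step in lhp1-4 then lay at 2.41 and 3.15 and kept its call both times.

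Over the 8 arrays, the log2 intensities of FT and FUL correlated at 0.955 (Pearson's r, a description over 4 genotypes of 2 arrays each). SOC1 correlated with FT at 0.439 and with FUL at 0.488, and FLC with FT at 0.363, with FUL at 0.105 and with SOC1 at -0.12. The genotype means of FT spanned 22.7-fold, a span exceeded by 0.0924% of all probe sets. Those of FUL spanned 6.92-fold, of FLC 3.19-fold and of SOC1 1.42-fold.

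The probe sets closest in pattern were sought among 2159 with a settled level and a span of at least 1 log2 unit between genotype means, by Pearson's r over the 8 arrays. For FT they were 248710_AT (r = 0.994), 253309_AT (0.991) and 248684_AT (0.991). Their genotype means spanned 3.40-fold, 14.9-fold and 9.54-fold, each less than the 22.7-fold of FT, and all 3 were lowest in bpc4 bpc6 and highest in the triple mutant. For FUL they were 256145_AT (r = 0.994), 250565_AT (0.992) and 260551_AT (0.991). Their spans were 6.0-fold, 2.35-fold and 15.97-fold beside the 6.92-fold of FUL, and all 3 were lowest in wild type and highest in the triple mutant. FUL ranked 132nd in likeness to FT. For FLC the closest were 245392_AT (r = 0.903), 267532_AT (0.889) and 252997_AT (0.874), all lowest in bpc4 bpc6. SOC1 spanned under 1 log2 unit and was left out. No source used here pairs these probe sets with genes.

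**Figure D4:**
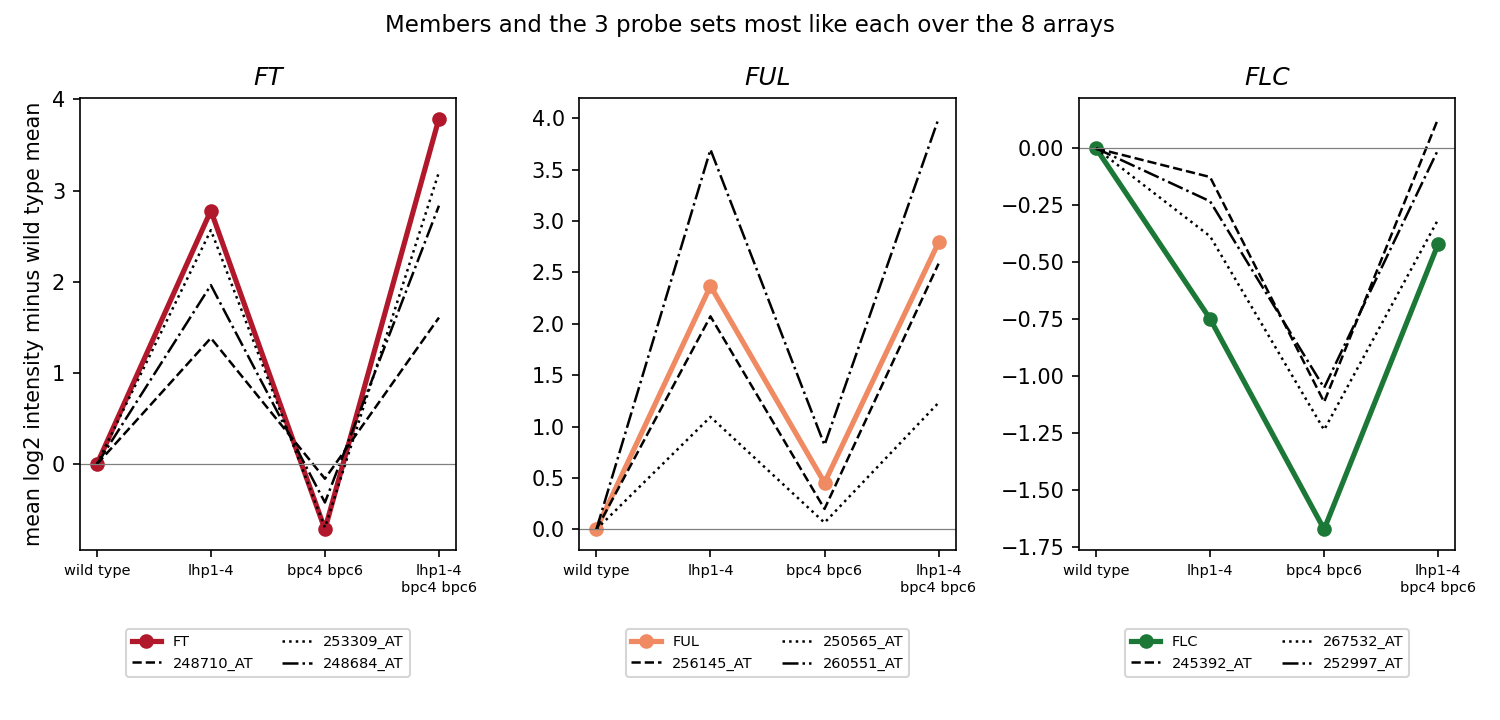
Mean log2 intensity of each genotype minus that of wild type for FT, FUL and FLC (coloured) and for the 3 probe sets most like each (black). The FT and FUL sets peak in lhp1-4 and the triple mutant, FT from a dip in bpc4 bpc6, and the FLC sets are lowest in bpc4 bpc6.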

How the data were processed

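The deposited table gives an intensity for each probe set on each array, made by the authors with RMA per the submitters' processing notes (background correction, quantile normalisation, then 1 value from several probes). No source used here gives the RMA version or the probe set definition. The deposited intensities were linear and none reached 1000, so values under 3, values of 10 to 100 written with 3 decimals, and values brought within 5-fold of those were multiplied by 1000. Values of 3 to 10 were settled by closeness within 5-fold under one reading and at least 20-fold under the other. This reading was inferred from the values. It left 30 probe sets unsettled, which were omitted, and 5007 of open level, tested as they stood. Every FLC value over 10 was written with 2 decimals and read as it stood.

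Log2 intensities were fitted with limma 3.58.1 (R 4.3.3): group means over 8 arrays, 4 residual degrees of freedom, 2.85 gained from moderation, 6 contrasts and no filter on dim probe sets. The fit and the restoration were tested on simulated data. The 4 genes, the list and the tests were chosen with earlier results of these data known. Named genes are those 4, plus the 3 probe sets with the highest Pearson r to each gene whose genotype means span 1 log2 unit. A list of 54 other flowering genes was drawn up, but without a probe annotation it was not used here, nor were sequences. Alternatives covered scale, closeness (3-fold), centring, quantile normalisation, a mean intensity of at least 32, moderation, weights, samples fitted, replicate block and omission of each array. Replicates are biological per the labels. The number of arrays limits the precision.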

Additional observations from a re-analysis of the deposited data

Results flagged for a closer look

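For FT the arrays lay on opposite sides in the 2 backgrounds when BPC4 and BPC6 were lost, although neither difference passed limma's test. The share of all probe sets with such opposite sides was not counted. With LHP1 present both bpc4 bpc6 arrays lay below both wild type arrays, at a log2 difference of -0.71 (limma adjusted p = 0.218; -0.34 without wild type replicate 2), and without LHP1 both triple mutant arrays lay above both lhp1-4 arrays, at 1.01 (limma adjusted p = 0.0821). The difference between these effects, the interaction, was 1.72 on the log2 scale and did not pass limma's test (adjusted p = 0.0631; 0.0233 to 0.753 over 16 alternatives).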

How the results depend on the processing

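Of the settings run for each gene and comparison, 361 kept direction and side of the threshold, 18 gained a call and 8 lost one, 2 of these with the sign turned, and 11 others turned the sign without a call. Only centring, quantile normalisation, omitting a compared array and, for FT in the triple mutant, the deposited scale moved a difference. Elsewhere the direction was fixed and only the call could change. The values as deposited, with FT at 1.32 in 1 triple mutant array, turned FT to -1.19 (triple mutant against wild type), -3.97 (against lhp1-4), -0.48 (against bpc4 bpc6) and -3.26 (interaction). They ended the FT calls of the triple mutant against wild type and bpc4 bpc6 (limma adjusted p = 0.771 and 0.93). Also ended were the FT call in lhp1-4 at an unmoved 2.78 and the FLC call between triple mutant and bpc4 bpc6 at 1.25. For FT the larger spread comes from the unrestored value. FLC had the same values in both fits, so its SE, 0.34 in place of 0.32, moved only with the moderation shared by all probe sets. Which of those probe sets moved it was not tested. Calls were gained by FLC in bpc4 bpc6 with centred arrays (-1.70), an intensity trend (-1.67) and the replicate block (-1.67, limma adjusted p = 0.0274); by FT between triple mutant and lhp1-4 without dim probe sets (1.01) and with array weights (1.01); and by the FT interaction with centred arrays (1.76), without dim probe sets, with the trend, with weights and with the replicate block (1.72 in each). The FLC interaction of 2.00 was called with the replicate block (limma adjusted p = 0.0325), and centring turned the FUL interaction to 0.014. The cause was not tested. The labels give only a replicate number. Differences between replicates correlated across genotypes at -0.18 to 0.23, so the numbers are not known to pair the arrays, and the replicate block changed no other call of these genes. The dim filter removed FLC, which has no value there. It also removed the 5007 probe sets of open level, some of which may not be dim. The intensity trend placed those same probe sets at the dim end.

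Leaving out each array in turn moved SOC1 from -0.0076 to 0.86 in lhp1-4, -0.024 to 0.84 in bpc4 bpc6 and 0.070 to 0.94 in the triple mutant, all against wild type, from -0.019 to 0.17 between triple mutant and lhp1-4, from -0.0032 to 0.19 between triple mutant and bpc4 bpc6, and from -0.76 to 0.10 for the interaction. FLC ran from -0.84 to 0.0039 (triple mutant against wild type), -0.011 to 0.67 (against lhp1-4) and 1.08 to 1.42 (against bpc4 bpc6). FLC against wild type ran from -1.17 to -0.32 in lhp1-4 and from -2.10 to -1.25 in bpc4 bpc6, and FT in bpc4 bpc6 against wild type from -1.08 to -0.34. FT ran from 0.80 to 1.22 between triple mutant and lhp1-4 and from 1.35 to 2.09 for the interaction, and FUL from 0.10 to 0.75 and from -0.35 to 0.30 in the same comparisons. Over all probe sets, calls ran from 289 to 1832 in lhp1-4, 41 to 380 in bpc4 bpc6, 3822 to 5390 in the triple mutant, 34 to 701 and 2845 to 5021 for the triple mutant against lhp1-4 and bpc4 bpc6, and 23 to 401 for the interaction, against 1366, 410, 5328, 753, 4863 and 529. The 410 calls became 734 without dim probe sets, 161 with array weights and 0 in limma with only the genotypes compared (3139 at an unadjusted p under 0.05), where the triple mutant had 3369 against wild type and 386 against lhp1-4.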
